A study of Mus musculus with 45 samples.

Results

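Late reprogramming cells that were still in serum with doxycycline were set against embryonic stem cells sequenced with the same nanopore chemistry. The members were chosen by their labels: the last serum time point of each factor cassette (OKMS or OKS) in each chemistry, and the stem cell libraries of that chemistry, which came to 12 of the 45 mouse libraries of the series. In the older R9 chemistry, used on direct cDNA of poly(A) RNA, these were 1 OKMS and 1 OKS library at day 20 and 2 stem cell libraries, of the lines O4G and R1. In the newer R10 chemistry, used on PCR-amplified cDNA of total RNA, they were 1 OKMS and 1 OKS library at day 18 and 6 numbered stem cell libraries, 2 each of O4G, R1 and R1-Clone3. The reprogrammed cells came from neural progenitors, derived from O4G stem cells, a line made from R1 with an Oct4-GFP reporter, that carried a doxycycline-inducible cassette for OKMS (Oct4, Klf4, c-Myc and Sox2) or for OKS (the same without c-Myc). The genotype labels of these cells read OKMS-Luciferase-AS and OKS-Luciferase-AS. The late cells grew with 15% FBS, LIF and 1 µg/mL doxycycline, so that the inducer was still present. Expression from the cassette itself was not measured. The stem cells were wild type, carried no cassette, and grew without serum or doxycycline in 2i-LIF, which is LIF with the GSK3 inhibitor CHIR-99021 and the MEK inhibitor PD0325901. Medium, doxycycline, cassette and history of the cells therefore changed together between the 2 arms and cannot be told apart in this comparison, nor can day and chemistry. For reference, progenitors (in each chemistry 2 wild-type, 1 OKMS and 1 OKS library, in progenitor medium without doxycycline), R9 serum libraries from day 2 to day 14, and late OKMS and OKS cells that had been moved to 2i-LIF (day 20 in R9, day 18 in R10, and day 14 for OKMS in R9) were read alongside. Late 2i-LIF cells below are the 4 libraries of days 18 and 20. A further reference was 2 R10 libraries of wild-type progenitors after 2 days in the serum medium with 1 µg/mL doxycycline, set against the 2 R10 wild-type libraries in progenitor medium, so that medium and doxycycline changed together there as well.

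Embryonic stem cells in 2i-LIF are held in a naive state: MEK inhibition blocks the ERK pathway, GSK3 inhibition stabilises beta-catenin, and LIF acts through STAT3. Serum brings growth factors and BMP-like signals, drives ERK, SRF and YAP target genes, and is known to make stem cell cultures heterogeneous and more methylated. Reprogramming cells lose the programme of their cell of origin, pass through an epithelial intermediate, and switch on the endogenous pluripotency genes late. Levels below are CPM (reads of a gene as a share of the library's reads, scaled to the same total), which are not corrected for gene length and are compared between libraries for 1 gene at a time. Differences are late serum minus stem cells on the log2(CPM + 1) scale, with their standard error (SE), from a limma fit of all 12 libraries with chemistry as a term. A gene was called at an adjusted p under 0.05 and a difference of at least 1.

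The late R9 libraries held 812160 and 1391635 reads and the R9 stem cells 1056188 and 1074415. In R10 depth moved with the arms, with 673947 and 780963 reads in the late libraries against 2231872 to 4245818 in the stem cells. A single read is thus worth 1.48 or 1.28 CPM in the late R10 libraries, and differences of genes below a few CPM rest on few reads there. Mitochondrial genes took 2.02 to 2.04% of reads in late R10 and 1.81 to 2.35% in R10 stem cells, and 0.387 to 0.430% against 0.309 to 0.344% in R9. In this fit 2616 of 15136 genes were called (17.3%), 1152 higher (7.61%) and 1464 lower (9.67%) in late serum cells. DESeq2 on the recovered reads called 1407 higher and 927 lower, so the split between the directions depended on the method, and it moved the median difference of all genes from -0.08 to 0.03. With all libraries thinned to the depth of the shallowest, the fit called 916 higher and 945 lower. The split also differed between cassettes, with 673 higher and 1586 lower for the OKMS libraries alone and 1292 and 1444 for the OKS libraries alone. In simulated reads of these depths the fits of both chemistries and of R10 alone made more false calls than their threshold allows, most of them lower, and thinned reads, edgeR and DESeq2 made few. The table also held 20 rows whose names had become numbers, 12 of which had reads in all 36 libraries other than stem cells. None of the 20 had reads in the 9 stem cell libraries. The stem cell columns may therefore have been compiled separately, and the part of such a step in the differences from stem cells was not tested.

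Pou5f1, the Oct4 gene, stood at 1457 and 1393 CPM in late OKMS and OKS R9 and at 889 and 828 in R10, and in stem cells at 1309 and 1402 in R9 and between 885 and 1109 in R10. The late and stem cell ranges overlapped, and the difference of -0.11 (SE 0.12, adjusted p = 0.54) passed no threshold. Progenitors had at most 3.87 CPM. Sox2 differed by -0.69 (SE 0.23, adjusted p = 0.038), short of the log2 difference of 1, but was called lower in the fit of R10 alone. Klf4 was lower by the call, with 96.0, 109, 23.7 and 29.5 CPM in the late libraries against 113 and 153 in R9 and 57.7 to 103 in R10 stem cells (-1.07, SE 0.22, adjusted p = 0.002). That call was lost without either late R10 library, with the OKS libraries alone, with edgeR and DESeq2, and with the R10 stem cell library without a number added. Myc was higher, at 93.6, 49.6, 5.94 and 52.5 CPM against at most 0.931 in R9 and 0.290 to 11.8 in R10 stem cells (3.27, SE 0.78, adjusted p = 0.006), but the R10 ranges overlapped and the call was lost with the OKMS libraries alone. For these 4 genes the files do not separate reads of the gene itself from reads of the cassette.

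Every late serum library lay between progenitors and stem cells, and OKS lay further from the stem cells than OKMS in both chemistries. A library's position was a slope across genes: its distance from the average progenitor was regressed on the distance between average stem cell and average progenitor, so that 0 marks progenitors and 1 stem cells. It was read on genes that the other chemistry had called between these 2 states (7161 genes for R9, 4396 for R10). Late OKMS cells stood at 0.803 in R9 and 0.753 in R10. Late OKS cells stood at 0.695 and 0.604. Late cells moved to 2i-LIF reached 0.932 to 0.964, and single stem cell libraries 0.987 to 1.02. The stem cell libraries enter the mean that defines 1, so their positions average 1 by construction, and none was left out. The late libraries do not enter the axis, so the gap between late 2i-LIF and stem cell libraries is not a like comparison. The positions are descriptions, with 1 library per cassette and chemistry. A mixture of cells at different stages cannot be told apart from a uniform intermediate state in bulk libraries.

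**Figure D1:**
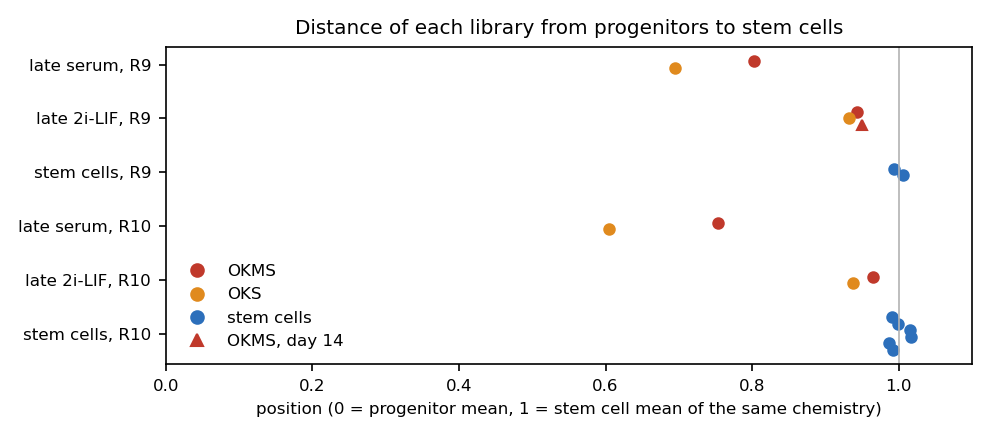
Position of single libraries on the axis from the progenitor mean (0) to the stem cell mean (1) of the same chemistry, in units of that distance; each point is 1 library and the triangle is the day 14 OKMS library in 2i-LIF. The 4 late serum libraries sit between 0.604 and 0.803, below all late 2i-LIF libraries (0.932 to 0.964) and all stem cell libraries. The stem cell libraries enter the mean that defines 1 and average 1 by construction.

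The R10 calls were read against lists called in other libraries, so that no library was in both. The lists name a state and no cause: they were called in R9 libraries, apart from the wild-type serum list, which came from R10 progenitors, and the R9 pairs of serum and 2i-LIF libraries differ in doxycycline too. In R9 alone 343 of 14505 genes were called (2.36%), 155 higher (1.07%) and 188 lower (1.3%), with 2 libraries an arm. In R10 alone, 3808 of 15947 genes were called (23.9%), 1760 higher and 2048 lower (12.8%). Of these, 1668 higher and 1893 lower genes had also been tested in R9. Of the 1668 higher genes, 623 (37.4%) were progenitor-high, meaning called above R9 stem cells in R9 progenitors, against 12.3% of all genes tested in both. Those 623 were 27.4% of the 2272 progenitor-high genes. Of all genes in the R9 reference fit, 12.3% were progenitor-high, 12.1% progenitor-low, and 10.1% higher and 7.18% lower in serum cells of days 6 to 14 than in stem cells. A further 250 (15.0%) were called above stem cells in R9 serum cells of days 6 to 14 but not in progenitors, against 4.10% of all genes. The other 795 were in neither class. The 3 R9 pairs of serum and 2i-LIF libraries called 3.93% of genes serum-high and 3.62% serum-low. Serum-high genes made up 389 of the higher genes (23.3%, against 3.86% of all genes), and those 389 were 64.0% of the serum-high list. Of them, 169 were progenitor-high as well and 220 were not, and 123 were neither progenitor- nor intermediate-high (20.2% of the serum-high list). Among the 1893 lower genes, 842 (44.5%) were progenitor-low, against 14.3% of all, which was 37.6% of the 2239 progenitor-low genes, and 338 (17.9%) were serum-low, against 3.57%. Those 338 were 60.5% of the serum-low list. Genes that 2 days of serum with doxycycline raised in wild-type progenitors made up 397 of the higher genes (23.8%, against 10.6% of all genes), and genes that it lowered 125 of the 1893 lower genes, a smaller share than the 10.6% of all genes. From thinned reads 892 higher and 915 lower genes had been tested in R9. Of the higher, 41.4% were progenitor-high and 29.7% serum-high, and of the lower, 56.2% were progenitor-low and 27.5% serum-low.

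**Figure D2:**
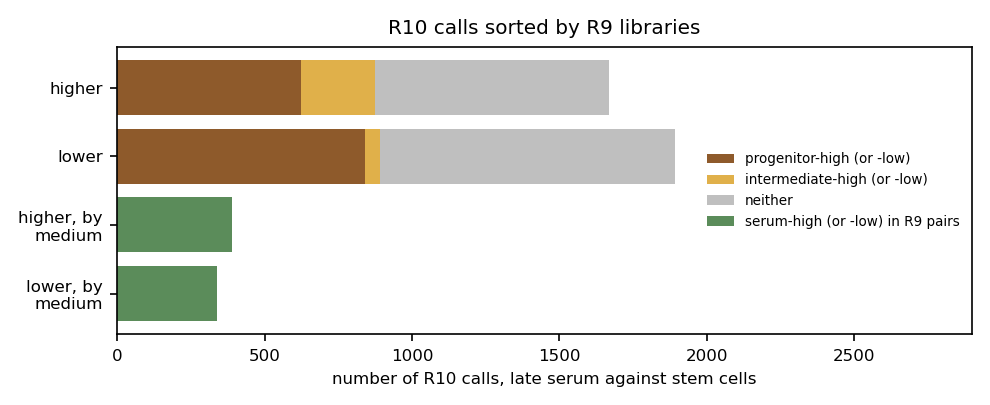
Number of R10 calls for late serum against stem cells (horizontal axis), sorted by calls made in R9 libraries: the upper pair of bars by progenitor and intermediate state, the lower pair by the serum against 2i-LIF pairs. Of 1668 higher genes 623 were progenitor-high and 250 intermediate-high, and of 1893 lower genes 842 were progenitor-low.

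The 623 genes were chosen for standing above stem cells in late R10 cells, so their level there is a description of that choice. In late R10 cells 507 of them stood below the R10 progenitor mean. OKS exceeded OKMS for 68.1% of them in R10 and 83.5% in R9, beside 51.8% and 53.7% of all genes tested in R10. The intermediate-high genes leaned the same way, at 70.8% and 83.6%, whereas the genes in neither class split, with 39.5% higher in OKS in R10 and 68.3% in R9.

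Among genes of neural progenitor identity, 14 of 24 were tested, 7 were called higher and 1 lower, with a list median of 1.22 beside -0.08 for all genes. With no filter 8 of 21 were higher and 1 lower. Ccnd2, a D-type cyclin of neural progenitors (chr6:127125162-127152193, GRCm38, minus strand), was the highest of them. It stood at 39.4 CPM in OKMS and 219.9 in OKS in R9, and at 95.0 and 1149 in R10. Stem cells had at most 2.08 CPM and progenitors 489 to 967 in R9 and 1404 to 1529 in R10 (6.75, SE 0.62, adjusted p = 2e-06). The groups did not overlap, and late OKS R10 cells approached the progenitor level. The lncRNA Gm43126, whose annotation overlaps the end of Ccnd2 on the other strand, followed it at 13.5, 56.8, 11.9 and 170.3 CPM. Without a stated use of strand, reads of the pair cannot be separated.

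Slc1a3, the glial glutamate transporter GLAST, was called higher at a lower level. It had 13.5, 15.8, 5.94 and 14.1 CPM against at most 2.08 in stem cells and 117 to 201 in progenitors (2.78, SE 0.36, adjusted p = 4e-05). Fabp7, the brain fatty acid binding protein, was at 0 in all 8 stem cell libraries, at 2.97 to 9.34 CPM in the late cells and at 2624 to 5207 in R9 progenitors. Late 2i-LIF OKS cells had more of it, 37.2 CPM in R9 and 39.1 in R10. Olig2, the oligodendrocyte lineage factor that progenitors held at 114 to 238 CPM, was at 0 in all 4 late libraries, and Hes5 was at 0 as well. Sox21, also on this list, was the member called lower, at 0 to 3.84 CPM against 8.13 to 20.6 in stem cells (-2.10, SE 0.41, adjusted p = 0.0015), a call lost when all libraries were thinned to the depth of the shallowest. The summed level of the 24 genes was 134 CPM in OKMS and 377 in OKS in R9, 292 and 1425 in R10, against 58.1 to 90.2 in stem cells and 12411 to 18519 in progenitors. The list had 4 calls among 10 tested genes with the OKMS libraries alone, 4 of 11 without late OKS R10, 5 of 11 without late OKS R9 and 4 of 6 at a minimum of 5 CPM.

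Outside that list, Mgst1 and Tmem176b stood below progenitors and above stem cells in all 4 late libraries. Mgst1, a microsomal glutathione transferase, had 6.16 and 53.2 CPM in R9 and 31.2 and 211 in R10 in OKMS and OKS, at most 0.896 in stem cells, and 218 to 413 in progenitors (5.27, SE 0.57, adjusted p = 8.4e-06). Tmem176b, a membrane protein gene, had 11.1, 74.0, 66.8 and 256 CPM against at most 2.84 in stem cells and 678 to 1428 in progenitors (5.35, SE 0.63, adjusted p = 2e-05). Neither gene went down steadily from the progenitor level. In R9 OKS serum libraries of days 2 to 10 Mgst1 had 1426 to 1700 CPM and Tmem176b 3397 to 3951. In wild-type progenitors 2 days of serum with doxycycline raised the mean of Mgst1 from 252 to 1384 CPM (2.43, adjusted p = 0.0054) and that of Tmem176b from 817 to 3938 (2.23, adjusted p = 0.013). In both genes the late OKS library exceeded its OKMS partner several fold, and OKS in 2i-LIF (8.15 and 18.8 CPM for Mgst1, 15.1 and 40.7 for Tmem176b) still exceeded OKMS in 2i-LIF, which had at most 1.76. Prelp, a matrix proteoglycan, differed from these in R10, where both late levels, 50.4 CPM in OKMS and 177 in OKS, lay above the progenitor range of 12.1 to 31.5 (5.50, SE 0.55, adjusted p = 4.7e-06).

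Of the mesenchymal transcription factors, 6 of 10 were tested and 2 were higher, and with no filter 2 of 9 were higher. None was higher and 1 lower with the OKMS libraries alone, 1 was higher without late OKS R9 and with the OKS libraries alone, 1 was higher and 1 lower without late OKS R10, and none was called at a minimum of 5 CPM. Prrx1, a factor of mesenchyme, was at 0 in all 8 stem cell and all 4 late 2i-LIF libraries of days 18 and 20. In late serum cells it had 1.23 (1 read) and 10.1 CPM in R9 and 5.94 and 15.4 in R10. In R10 that was at least 68.9-fold above the floor of 3 reads over the 6 stem cell libraries, in R9 at least 4.01-fold over 2. Twist1 had 7.39, 20.8, 2.97 and 8.96 CPM against at most 1.89 in stem cells (2.23, SE 0.36, adjusted p = 0.00029). The list as a whole did not follow Prrx1 in 2i-LIF. Its summed level was 45.6 to 145 CPM in late serum R9 and 62.3 to 198 in R10. Late 2i-LIF cells had 43.0 to 192 and 42.3 to 191, stem cells 40.0 to 65.5 and progenitors 576 to 949.

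Genes of the basement membrane were read from the endoderm list, of which Lama1, a laminin chain, was called lower in the fit of R10 alone. Col4a1 and Col4a2, which encode the paired type IV collagen chains and lie side by side on opposite strands (chr8:11198423-11312826 and chr8:11312805-11449287, GRCm38), were both higher than in stem cells. Col4a1 had 71.4 and 111 CPM in R9 and 137 and 196 in R10, against 0.931 to 9.19 in stem cells, 92.3 to 115 in R9 progenitors and 36.5 to 70.7 in R10 progenitors (5.11, SE 0.35, adjusted p = 1.2e-07). Col4a2 had 25.9, 48.9, 49.0 and 62.7 CPM against at most 3.89 in stem cells and 14.9 to 48.9 in progenitors (4.53, SE 0.43, adjusted p = 2.8e-06). Lamb1, a laminin chain, had 62.7 to 117 CPM against 3.79 to 12.0 in stem cells and 60.2 to 177 in progenitors (3.40, SE 0.27, adjusted p = 4.4e-07). All late libraries lay above all stem cell libraries for each of these, as they did for 7.29% of all genes tested. The reverse held for 9.81%. Of the extracellular matrix list, 13 of 22 were tested and 7 were higher, with a median of 1.18, among them Col6a1 (4.69, SE 0.32, adjusted p = 1.2e-07) and Thbs1. With no filter 9 of 22 were higher, and in R10 alone 9 of 14 were higher and Col5a1 lower. The list summed to 634 CPM in OKMS and 1245 in OKS in R9, against 667 to 824 in stem cells. In R10 it summed to 1016 and 1460, against 591 to 722. Col1a2, Col5a2, Postn, Lox and Thbs2 were at 0 in both late R10 libraries. With the OKMS libraries alone 2 of 9 tested members were called, without late OKS R10 3 and without late OKS R9 4.

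The 2 largest rises among annotated protein-coding genes were in the contractile cytoskeleton, whose genes are targets of SRF with its cofactor MRTF and of YAP. Of 20 genes, 19 were tested, 12 were higher and none lower, with a list median of 2.61. Tagln, an actin-binding protein of smooth muscle (chr9:45929619-45936058, GRCm38, minus strand), had 73.9 CPM in OKMS and 417 in OKS in R9 and 78.6 and 249.7 in R10. It was at 0 in both R9 stem cell libraries and at most 0.656 in R10 (7.14, SE 0.43, adjusted p = 5.1e-08), and R9 was at least 174.5-fold above the floor of 3 reads over both stem cell libraries. Acta2, smooth muscle actin (chr19:34241090-34255590, minus strand), had 59.1 and 292 CPM in R9 and 59.4 and 362 in R10, against at most 0.448 (7.05, SE 0.47, adjusted p = 9.5e-08). No late library overlapped any stem cell library, and OKS stood above OKMS in both chemistries. Progenitors had at most 4.67 CPM of Tagln and 6.43 of Acta2. At day 2 in R9 Tagln stood at 400.0 CPM in OKMS and 512 in OKS and Acta2 at 468 and 587, and Acta2 in OKS peaked at 2299 on day 14 before the 292 of day 20. Wild-type progenitors without a cassette, kept in serum with doxycycline for 2 days, had a mean of 45.4 CPM of Tagln and 77.2 of Acta2 (R10, n = 2), against 0.476 and 0.143 in progenitor medium. Late cells in 2i-LIF had at most 10.9 CPM of Tagln and 3.13 of Acta2.

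SRF binds the CArG box, and the promoter windows were searched for it by its name alone, the sequence being its own reverse complement in form so that both strands are covered. RefSeq windows of 250 bases before to 50 after the start (GRCm38.p6) were held for 15 of the 20 genes, of which 4 had a strict match (26.7%), and for 12 of the 20 ERK target genes, of which 1 had it. Of all 27025 genes with a window 1.81% had a match. The matches were not tested against that share. The windows of Tagln were not among those held, and the window of Acta2 had no strict match. The following 4 windows show the matches nearest the start, in capitals, 5′ to 3′ on the gene's strand: Myl9 at chr2:156775214-156775513 (plus), Cnn2 at chr10:79988350-79988649 (plus), Srf at chr17:46556113-46556412 (minus) and Dusp5 at chr19:53528895-53529194 (plus).
Myl9: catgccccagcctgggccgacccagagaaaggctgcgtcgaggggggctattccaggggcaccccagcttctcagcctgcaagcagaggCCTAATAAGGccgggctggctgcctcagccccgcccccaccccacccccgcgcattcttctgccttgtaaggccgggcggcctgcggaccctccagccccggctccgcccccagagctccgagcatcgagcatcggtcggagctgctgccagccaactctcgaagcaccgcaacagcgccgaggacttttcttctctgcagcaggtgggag
Cnn2: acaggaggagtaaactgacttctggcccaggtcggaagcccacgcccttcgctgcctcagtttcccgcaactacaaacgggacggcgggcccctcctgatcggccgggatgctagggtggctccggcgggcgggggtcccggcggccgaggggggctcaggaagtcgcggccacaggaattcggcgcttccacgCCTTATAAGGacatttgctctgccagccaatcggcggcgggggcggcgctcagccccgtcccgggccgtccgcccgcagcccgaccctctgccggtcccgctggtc
Srf: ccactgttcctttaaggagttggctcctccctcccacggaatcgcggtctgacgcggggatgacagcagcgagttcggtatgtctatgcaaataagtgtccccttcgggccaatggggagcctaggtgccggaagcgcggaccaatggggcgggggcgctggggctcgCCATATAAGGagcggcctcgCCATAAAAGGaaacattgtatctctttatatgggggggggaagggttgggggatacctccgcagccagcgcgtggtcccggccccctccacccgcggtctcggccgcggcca
Dusp5: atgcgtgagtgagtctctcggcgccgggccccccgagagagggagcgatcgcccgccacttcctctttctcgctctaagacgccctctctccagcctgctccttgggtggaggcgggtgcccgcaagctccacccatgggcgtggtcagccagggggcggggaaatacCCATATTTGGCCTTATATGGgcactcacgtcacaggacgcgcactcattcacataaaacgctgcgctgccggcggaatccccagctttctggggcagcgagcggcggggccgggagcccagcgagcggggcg
The box of Myl9 begins 161 bases before the start, that of Cnn2 56 before, those of Srf 82 and 62 before, and the adjoining pair of Dusp5 82 and 72 before.

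These 4 genes did not move alike. Myl9, a myosin light chain, had 11.1, 45.3, 8.90 and 83.2 CPM against at most 2.30 in stem cells (3.99, SE 0.54, adjusted p = 6.6e-05). Cnn2, calponin 2, had 105, 298, 205 and 292 CPM against 11.9 to 68.3 (2.92, SE 0.40, adjusted p = 7.5e-05). Srf itself had 30.8, 60.4, 19.3 and 29.5 CPM against 15.3 to 41.0 and was not called (0.32, SE 0.22, adjusted p = 0.32). Vcl, which holds the fourth match of the list, was not called either (0.46, SE 0.21, adjusted p = 0.13). Dusp5, a phosphatase that acts on ERK, had 8.62, 15.8, 7.42 and 1.28 CPM against at most 2.79 (1.65, SE 0.39, adjusted p = 0.0052). With the OKMS libraries alone 6 of 13 tested contractile genes were called, and 7 without either late OKS library. Tagln and Acta2, under 1 CPM in all stem cells, were not tested in these fits. The smaller counts therefore follow in part from the filter.

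**Figure D3:**
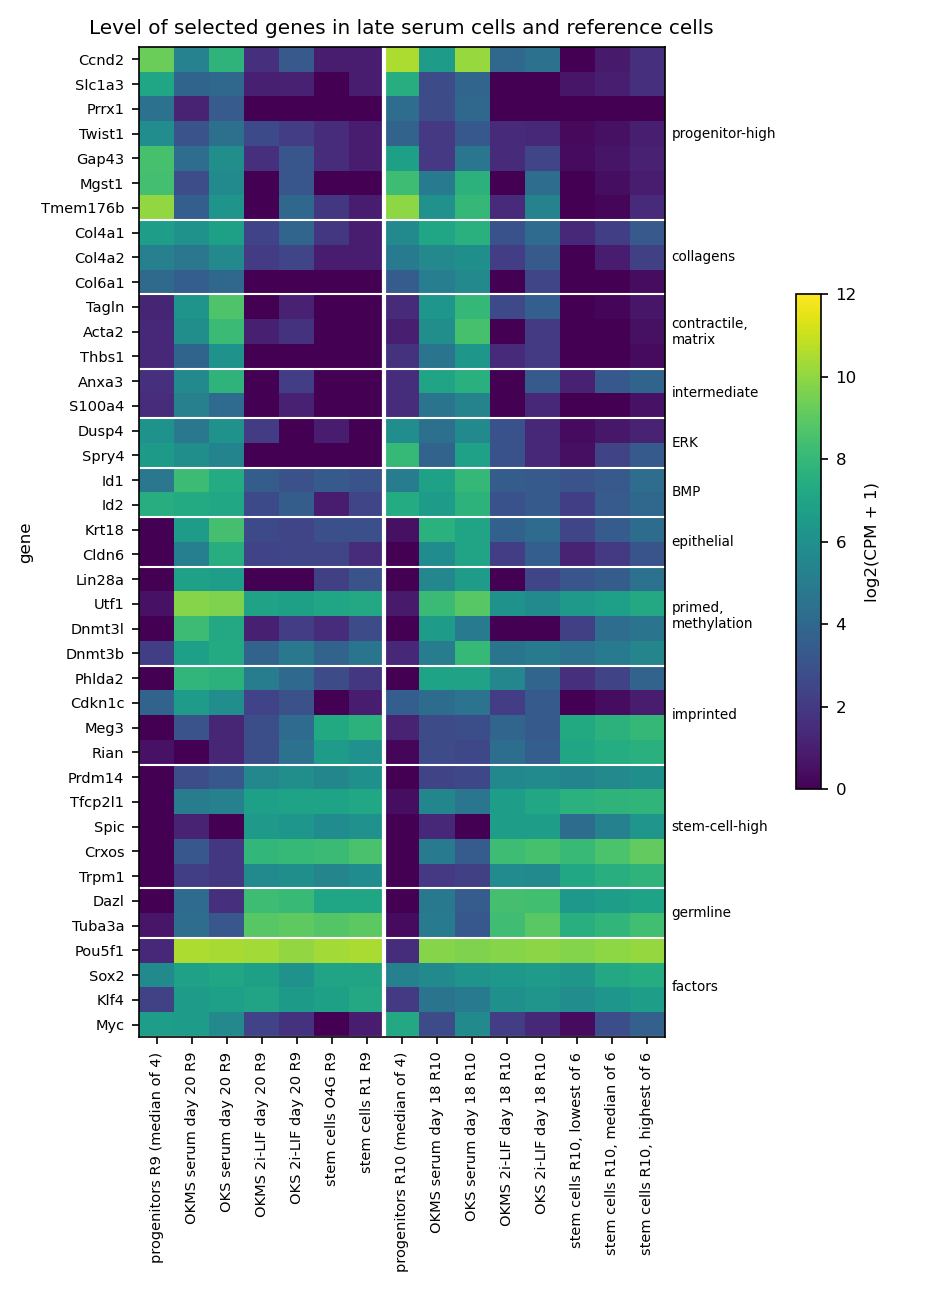
Level in log2(CPM + 1) (colour) of 40 genes in rows, grouped by role, in single libraries or, where the label says so, the lowest, median or highest of several; R9 is left of the white line and R10 right of it. The contractile genes are high in the late serum columns and low in stem cells, for example Tagln at 73.9 to 417 CPM against at most 0.656, while Meg3 and Rian are low in serum and 2i-LIF columns and high in stem cells.

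Of 20 genes that mark the reprogramming intermediate, 19 were tested and 13 were called higher, none lower, with a list median of 1.85. With the OKMS libraries alone 7 of 16 were higher and 2 lower. Wild-type progenitors without a cassette raised 7 of 13 tested members in 2 days of serum with doxycycline and lowered 3. Among those raised, Anxa3 went from a mean of 0.861 to 137.9 CPM. Anxa3, an annexin, had 50.5 and 221 CPM in R9 and 128 and 197 in R10, against 0 in R9 stem cells and 1.16 to 13.8 in R10 (5.34, SE 0.57, adjusted p = 8e-06). S100a4, a calcium-binding protein, had 36.9, 17.2, 23.7 and 39.7 CPM against at most 0.519 (4.82, SE 0.30, adjusted p = 7.7e-08). S100a6, its neighbour on chromosome 3, was among the most abundant, with 2343, 2077, 1085 and 2693 CPM against 36.0 to 114 (4.66, SE 0.30, adjusted p = 8.3e-08). Outside that list, Tm4sf1, a tetraspanin-like membrane protein, had 28.3, 50.3, 20.8 and 205 CPM against at most 0.260 (5.72, SE 0.46, adjusted p = 5.8e-07). The matricellular Thbs1, of the extracellular matrix list, had 13.5, 71.9, 23.7 and 80.7 CPM against at most 0.260 (5.27, SE 0.42, adjusted p = 4.6e-07). For all 5, the late 2i-LIF libraries lay far below their serum partners, with 147 CPM of S100a6 as the highest.

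The direct targets of the ERK pathway, which PD0325901 blocks in the stem cell medium, had 12 of 18 tested members called higher and none lower, with a median of 2.05. With the OKMS libraries alone 9 were higher and 1 lower, and in R10 alone 10 of 19 were higher and Etv5 lower. Dusp4, a nuclear MAP kinase phosphatase, had 27.1, 70.4, 20.8 and 51.2 CPM against at most 1.30 in stem cells (4.59, SE 0.38, adjusted p = 6.4e-07). Spry4, a feedback inhibitor of receptor signalling, had 61.6, 41.0, 13.4 and 115 CPM against 0 in R9 and 0.387 to 9.60 in R10 stem cells (4.20, SE 0.66, adjusted p = 0.00026). Both were also expressed in progenitors, at 10.5 to 114 CPM for Dusp4 and 61.5 to 297 for Spry4. In wild-type progenitors moved to serum with doxycycline for 2 days, 10 of 18 tested genes of this list fell and 3 rose, with a change of -5.11 for Spry4 (adjusted p = 0.0013). Background in that comparison was 14.9% of genes higher and 11.9% lower.

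Of the BMP and SMAD targets, 3 of 7 were higher: Id1, Id2 and Id3, which encode inhibitors of helix-loop-helix factors. Id1 (chr2:152736251-152737410, GRCm38) had 296 and 167 CPM in R9 and 116 and 252 in R10, against 7.30 to 18.7 in stem cells (4.19, SE 0.29, adjusted p = 1.2e-07). Late 2i-LIF libraries had 10.7 CPM in OKMS and 6.98 in OKS in R9, beside 7.45 and 9.47 in stem cells, and 10.6 and 9.39 in R10, within the stem cell range. Progenitors had 18.4 to 77.6. In wild-type progenitors the mean rose from 28.2 to 597 CPM in 2 days of serum with doxycycline (4.38, adjusted p = 0.0012), and all 7 genes of the list rose there. Id2 had 95.0 to 213 CPM against 0.947 to 15.5 (4.56, SE 0.43, adjusted p = 2.6e-06), and Id3 had 135 to 435 against 2.84 to 161, where the R10 groups overlapped (2.81, SE 0.60, adjusted p = 0.0028).

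Of the targets of beta-catenin, 5 of 13 tested were lower and none higher. Notum, a secreted Wnt inhibitor, had 11.1, 15.1, 1.48 and 1.28 CPM against 57.8 and 75.4 in R9 and 14.4 to 49.5 in R10 stem cells (-3.03, SE 0.35, adjusted p = 1.4e-05). Cdx1 had 2.46, 15.1, 0 and 2.56 CPM against 9.28 to 46.5 (-2.59, SE 0.55, adjusted p = 0.0026), with overlap in R9. Axin2, the usual feedback gene, had 1.23 to 7.90 CPM and was called lower (-1.80, SE 0.43, adjusted p = 0.0059), late 2i-LIF cells, with the GSK3 inhibitor present, had 2.33 to 3.53 and stem cells 3.72 and 9.47 in R9 and 20.5 to 41.2 in R10. The list's median, 0.03, lay above that of all genes (-0.08). Its count was 3 with DESeq2, with thinned reads, without late OKMS R9 and without the R1 stem cells of R9, and 8 with the OKMS libraries alone. The OKS libraries alone gave 2 higher and 2 lower, and leaving out late OKMS R10 gave 1 higher and 4 lower. Of the LIF and STAT3 genes, 2 of 11 were lower, Klf4 and Bcl3 (-1.75, SE 0.29, adjusted p = 0.00035). That share is near the 17.3% of all genes called in either direction, of which 9.67% were lower. This list had 1 call without late OKMS R10, with the OKS libraries alone, with edgeR and with the R10 stem cell library without a number added. It had 1 higher and 1 lower without late OKS R10 and with DESeq2, 1 and 2 without late OKMS R9 or the O4G stem cells of R9, and 1 and 3 with the OKMS libraries alone.

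Of 24 epithelial genes tested, 13 were higher, 1 was lower and 10 were not called, with a median of 1.08. Among the higher was Cdh2, N-cadherin, which is typical of neural and mesenchymal cells. Krt18, a simple-epithelium keratin (chr15:102028180-102032027, GRCm38), had 97.3 and 349 CPM in R9 and 202 and 128 in R10, against 4.71 to 17.7 in stem cells (4.18, SE 0.36, adjusted p = 1e-06). Cldn6, a tight junction claudin of early embryo, had 35.7, 177, 56.4 and 128 CPM against 1.31 to 7.54 (4.40, SE 0.45, adjusted p = 5.5e-06). Progenitors had at most 3.51 CPM of Krt18 and 0.584 of Cldn6. Epcam had 211 to 484 CPM against 45.6 to 96.8 (2.14, SE 0.19, adjusted p = 1.3e-06). Cdh1, E-cadherin, did not differ beyond the spread, at 69.0 to 148 against 55.8 to 174 CPM (0.05, SE 0.18, adjusted p = 0.89). Spint1, a protease inhibitor of epithelia, was the member called lower (-1.31, SE 0.26, adjusted p = 0.0015), a call lost with the OKS libraries alone.

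Formative and primed genes, which mark the step after the naive state, had 9 of 17 tested members higher and 1 lower. The list shares Krt18, Cldn6 and the Dnmt3 genes with other lists, so the counts are not independent. Trap1a, an X-linked gene on the list, was the member called lower, at 94.8 to 385 CPM against 375 to 496 (-1.35, SE 0.21, adjusted p = 0.00024), a call lost with the OKMS libraries alone. In the naive pluripotency list the members called higher were Lin28a and Utf1. Lin28a, an RNA-binding protein that blocks let-7, had 117, 101, 46.0 and 97.3 CPM against 3.79 to 22.1 in stem cells and at most 4.69 in late 2i-LIF cells (3.10, SE 0.35, adjusted p = 1.2e-05). Utf1, a chromatin factor of stem cells, had 904, 831, 292 and 471 CPM against 85.2 to 152 (2.07, SE 0.21, adjusted p = 5.5e-06).

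Of the DNA methylation genes, Dnmt3l, Dnmt3a and Dnmt3b were called higher and Uhrf1 lower. Dnmt3l, the cofactor of the de novo enzymes (chr10:78041947-78063622, GRCm38), had 300.4 and 152 CPM in R9 and 97.9 and 30.7 in R10, against 1.89 and 5.58 in R9 stem cells and 3.77 to 23.4 in R10 (3.46, SE 0.65, adjusted p = 0.00099). Late 2i-LIF cells had at most 3.49 CPM. In R9 serum it had 23.2 CPM on day 6, 95.6 on day 10 and 138 on day 14 in OKMS, and 0, 0 and 7.44 in OKS. Dnmt3a had 38.6 to 125 CPM against 8.38 to 21.3 (1.97, SE 0.29, adjusted p = 0.00016). Dnmt3b had 108, 162, 32.6 and 259 CPM against 13.3 to 43.6, with overlap in R10 (2.05, SE 0.42, adjusted p = 0.002), and its call was lost with the OKMS libraries alone. Uhrf1, which brings Dnmt1 to replicated DNA, had 86.1 to 108 CPM in all late libraries against 149.8 to 298 (-1.21, SE 0.15, adjusted p = 2.9e-05). In all, 4 of 11 members were called, and Dnmt1 itself was not. In R10 alone Dnmt3a and Dnmt3l were higher, and Uhrf1, Zfp57, Tet2 and Trim28 lower. In R9 alone Dnmt3l and Dnmt3b were higher and none of 10 tested was lower.

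Of 27 genes of the core and naive pluripotency network, 14 were lower and 2 higher, with a median of -1.07. The number lower was 11 with DESeq2 and without late OKS R10, and 12 with the OKS libraries alone. Prdm14, a repressor that guards the naive state (chr1:13113457-13127163, GRCm38, minus strand), had 6.16 and 8.62 CPM in R9 and 4.45 and 5.12 in R10, against 41.7 to 64.2 in stem cells (-2.97, SE 0.19, adjusted p = 8.3e-08). Tfcp2l1 had 25.6 to 44.5 CPM against 123 to 229.9 (-2.36, SE 0.17, adjusted p = 2.5e-07). Nanog had 206 to 283 CPM in the 4 late libraries against 689 to 1105 (-1.86, SE 0.14, adjusted p = 4e-07), and Esrrb 90.9 to 159 against 230.1 to 437 (-1.39, SE 0.20, adjusted p = 0.00012). In progenitors the highest level of any of the 4 was 5.38 CPM, of Esrrb. Late cells in 2i-LIF stood within or near the stem cell range for Prdm14 (46.2 to 59.4 CPM), and above the stem cells of their chemistry for Nanog (1008 to 1361).

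The deepest falls among protein-coding genes were of genes that stem cells in 2i-LIF express and that were low in progenitors and late serum cells. Spic, an ETS factor, had at most 1.48 CPM in late serum cells, 17.6 to 74.5 in stem cells and 76.8 to 106 in late 2i-LIF cells (-4.96, SE 0.39, adjusted p = 4.4e-07). Crxos, a homeobox gene of the naive state, had 8.62, 2.87, 29.7 and 10.2 CPM against 270.1 to 549 (-4.93, SE 0.33, adjusted p = 1.1e-07). Trpm1, an ion channel gene, had 2.87 to 3.84 CPM against 42.6 and 55.8 in R9 and 147 to 225 in R10 (-4.64, SE 0.28, adjusted p = 5.1e-08). Car8, a carbonic anhydrase relative, had at most 1.28 CPM against 18.8 to 44.1 (-4.42, SE 0.32, adjusted p = 2e-07). In each of these the late 2i-LIF libraries had at least 21.9 CPM. Tnni1, a troponin gene, did not follow. It had at most 3.84 CPM in late serum and 3.53 to 7.82 in late 2i-LIF cells, against 15.1 to 70.8 in stem cells (-4.19, SE 0.38, adjusted p = 2e-06). Xlr3c, Xlr5b, Oas1g and 1700013H16Rik were among the 10 largest falls of protein-coding genes too (-5.01 to -4.24). The Xlr and Oas1 genes have near-identical copies among which reads can be split, so their single values are uncertain.

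Germline genes moved in both directions, 7 of 20 tested lower and 4 higher. There were 8 higher and 6 lower without late OKS R10, 8 and 5 with the OKMS libraries alone, and 2 and 8 with the OKS libraries alone. Tuba3a, a testis tubulin, had 18.5, 8.62, 31.2 and 8.96 CPM against 188 to 505 (-4.31, SE 0.32, adjusted p = 2.5e-07). Dazl, the germ cell RNA-binding protein (chr17:50279395-50293636, GRCm38, minus strand), had 17.2, 2.16, 28.2 and 10.2 CPM against 82.4 to 138 (-3.18, SE 0.41, adjusted p = 4.1e-05). In late 2i-LIF cells Dazl stood at 268 to 354 CPM, above all stem cell libraries. The members called higher were of piRNA processing and meiosis, but they were low: Tdrkh had 6.16 to 26.9 CPM against at most 2.59 (2.99, SE 0.43, adjusted p = 0.00011) with 35.8 to 85.4 in progenitors, and Mael had 5.12 to 13.4 against at most 4.00 (1.84, SE 0.36, adjusted p = 0.0013) with 7.05 to 9.39 in late 2i-LIF cells.

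Imprinted genes, which are expressed from the allele of 1 parent, had 9 of 24 tested members higher and 4 lower, 5 and 6 with the OKMS libraries alone and 5 and 5 without late OKS R9. The higher included 3 growth-controlling genes of the distal chromosome 7 cluster. Phlda2, a placental growth inhibitor (chr7:143501545-143503150, GRCm38), had 238, 208, 123 and 118 CPM against 2.03 to 13.0 in stem cells and at most 2.69 in progenitors (4.83, SE 0.42, adjusted p = 1e-06). Cdkn1c, the CDK inhibitor p57, had 98.5, 58.9, 17.8 and 23.0 CPM against at most 0.931 (4.74, SE 0.38, adjusted p = 5.6e-07). Igf2 had 11.1 to 58.2 CPM against at most 0.387, and was at 0 in the 4 late 2i-LIF libraries of days 18 and 20. In late 2i-LIF cells Phlda2 also lay above the stem cell libraries, with 14.1 to 45.8 CPM.

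The maternal RNAs of the Dlk1-Dio3 domain on chromosome 12 were lower than in stem cells. Meg3 (chr12:109541001-109571726, GRCm38, plus strand) had 7.39, 1.44, 5.94 and 6.40 CPM in late serum cells against 157 and 210.3 in R9 and 153 to 251 in R10 stem cells (-5.04, SE 0.27, adjusted p = 1.2e-08). Rian, further along the same strand, had 0, 1.44, 5.94 and 5.12 CPM against 67.0 to 193 (-5.09, SE 0.25, adjusted p = 5.4e-09). Mirg, the last of the set, had at most 1.44 CPM against 3.87 to 40.0 (-3.51, SE 0.38, adjusted p = 8.2e-06). In late 2i-LIF cells Meg3 had 6.45 to 17.5 CPM and Rian 6.45 to 22.1, below every stem cell library. The serum cells were called below their 2i-LIF partners for Rian (-2.17, SE 0.54, adjusted p = 0.021) and not for Meg3 (-1.09, SE 0.55, adjusted p = 0.26). Progenitors had at most 3.51 CPM of Meg3, and O4G stem cells 157 CPM in R9. In wild-type progenitors Meg3 rose from a mean of 0.605 to 41.9 CPM in 2 days of serum with doxycycline (4.03, adjusted p = 0.033). Plagl1, an imprinted gene on chromosome 10, had 0 to 2.56 CPM in serum, 1.76 to 10.7 in 2i-LIF and 14.0 to 36.1 in stem cells (-3.43, SE 0.36, adjusted p = 6.2e-06).

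**Figure D4:**
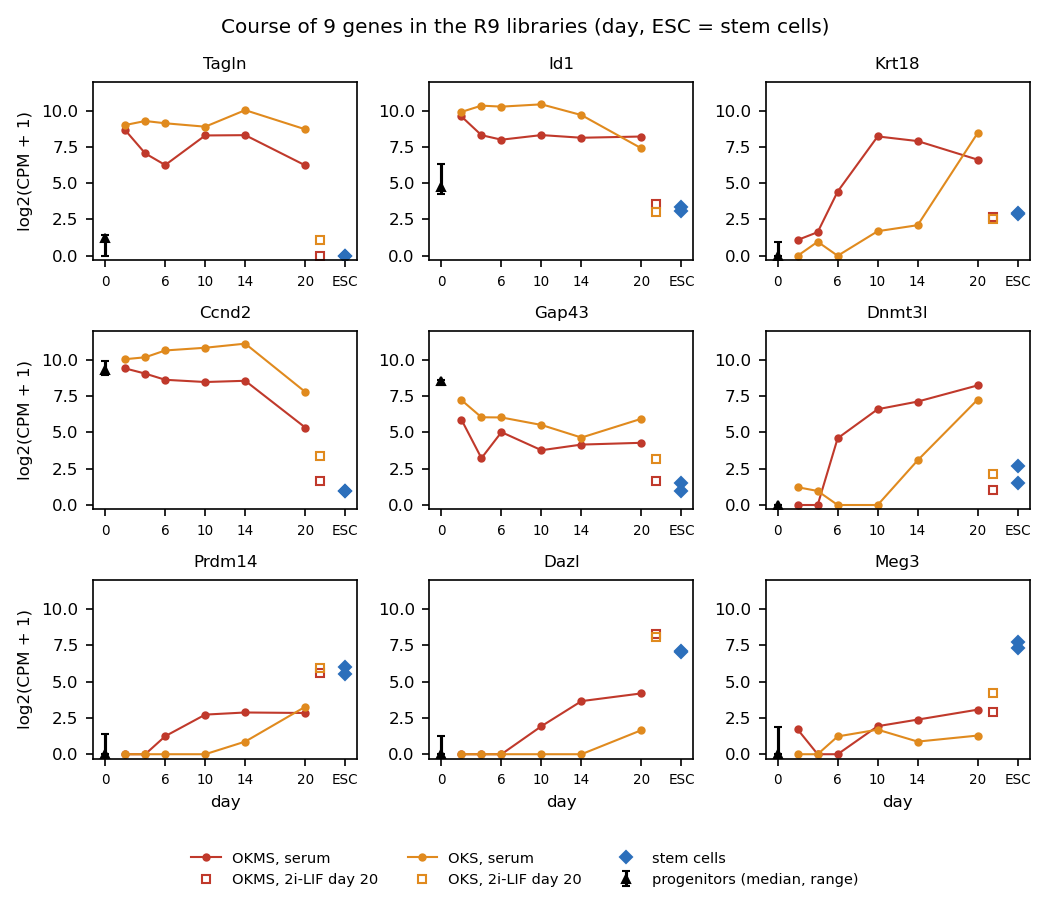
Level of 9 genes in log2(CPM + 1) against day in the R9 libraries: lines join single OKMS and OKS serum libraries, open squares are their day 20 partners in 2i-LIF, diamonds the 2 stem cell libraries, and the triangle the progenitor median with its range over 4 libraries. Tagln and Id1 are high from day 2 to day 20 in serum, Dnmt3l and Krt18 rise earlier in OKMS than in OKS, and Meg3 stays at 7.39 CPM or less in serum at every day while the stem cells have 157 and 210.3.

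Long noncoding RNAs were called lower more often than higher: of 614 annotated lncRNAs tested, 102 were lower and 38 higher, beside 1066 and 1033 of 12134 protein-coding genes. In the list of pluripotency-linked lncRNAs 8 of 18 were lower and none higher, and with thinned reads 8 of 19 were lower and 1 higher. Gm31659 fell most after Meg3 and Rian, from 65.3 to 216 CPM in stem cells to 2.46 to 7.19 (-4.77, SE 0.31, adjusted p = 8.7e-08). Gm28625 (3.19, SE 0.31, adjusted p = 3.1e-06) and Morrbid (3.15, SE 0.39, adjusted p = 2.9e-05) rose most after Gm43126. Of 1181 unannotated genes 198 were lower and 48 higher. These class counts come from the limma fit alone, whose false calls in simulated reads were mostly lower. They were not repeated on thinned reads or with other tools, so the lean to lower calls may belong to the method. The deepest fall was of a transcript that the files place antisense to Hydin (chr8:110495343-110607000, minus strand), with at most 1.48 CPM against 28.5 to 92.6 in stem cells and 59.1 to 79.3 in late 2i-LIF cells. The antisense placement rests on the authors' own transcript models.

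Markers of other cell types that the cultures could hold were read as whole lists. Neuron markers had 4 of 10 members tested and 3 higher, among them Gap43 with 18.5, 60.4, 2.97 and 25.6 CPM against at most 1.89 (3.14, SE 0.48, adjusted p = 0.00021). Map2, a microtubule protein of neurons, had 8.62, 10.1, 0 and 8.96 CPM against at most 2.32, with overlap in R10 (1.68, SE 0.57, adjusted p = 0.04), and lost its call in 10 alternatives. At a minimum of 5 CPM 1 of 2 tested members of the list was higher, and with no filter 3 of 9. Stmn2, the third, is also expressed by stem cells (182 to 434 CPM), and Rbfox3, which defines mature neurons, was at 0 in all 4 late libraries. The summed neuron list was 697 to 1066 CPM in late cells and 259 to 474 in stem cells. Of the astrocyte list 7 of 14 were tested, 4 higher and 1 lower, and 2 of 6 were higher with the OKMS libraries alone and without either late R10 library. With no filter 6 of 13 were higher and 1 lower. In wild-type progenitors 9 of the 14 rose in 2 days of serum with doxycycline and none fell, Clu from a mean of 2.85 to 1035 CPM (8.07, adjusted p = 0.00053). Clu had 35.6 to 101 CPM against at most 2.63 (4.69, SE 0.38, adjusted p = 5.8e-07), and Gja1, connexin 43, 70.2 to 198 against 0.931 to 23.0 (3.98, SE 0.35, adjusted p = 1.5e-06). Aldh1l1 was lower (-1.74, SE 0.37, adjusted p = 0.0028), and Gfap, which defines reactive astrocytes, had at most 1.48 CPM. The summed astrocyte list, 592 to 2432 CPM in late cells and 532 to 1658 in stem cells, was mostly Apoe, which was not called (0.10, SE 0.32, adjusted p = 0.86). The part of such cells in the results was not tested, and in bulk libraries fewer cells and less RNA per cell cannot be told apart.

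Of the endoderm list 6 of 10 tested were higher, led by the type IV collagens and the laminin chain Lamb1. In R10 alone 6 were higher and Lama1, another laminin chain, was lower. Pdgfra, also on the list, was at 0 in all 4 late libraries. Gata6, which defines primitive endoderm, was among the members called higher, with 9.85, 1.44, 4.45 and 1.28 CPM against at most 2.79 and overlap in R9. Trophoblast genes had 4 of 10 higher and 1, Tfap2a, lower (-1.66, SE 0.46, adjusted p = 0.014), a call lost without late OKMS R10, with the OKS libraries alone, with thinned reads, edgeR and DESeq2. The list had 2 calls with thinned reads, and 3 with edgeR, at a minimum of 5 CPM and without late OKMS R9 or late OKMS R10. Ascl2 had 16.0, 12.9, 5.94 and 3.84 CPM against at most 2.30 (2.58, SE 0.43, adjusted p = 0.00037), and Peg10 had 192, 170.3, 37.1 and 26.9 against 0 to 58.1, with overlap in R10 (3.16, SE 0.86, adjusted p = 0.013), a call lost with edgeR. Of the mesoderm and vessel genes Bmp4 was higher (1.64, SE 0.57, adjusted p = 0.047), with the call lost in 14 alternatives, and Pecam1 lower (-1.62, SE 0.34, adjusted p = 0.0022), a call lost with the OKMS libraries alone and with overlap in R10. T, the brachyury gene of that list, was named after its values were seen. It had 58.9 CPM in OKS R9 and 42.3 in OKS R10 and was at 0 in both OKMS libraries. Of the 2-cell-like genes only Eif4a3l1 was called among 5 tested (1.79, SE 0.59, adjusted p = 0.037), with 65.3, 3.59, 10.4 and 17.9 CPM in the late serum libraries and 18.6 to 124 in late 2i-LIF cells. That call was lost without late OKMS R9 or late OKS R10, and without several single stem cell libraries.

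**Figure D5:**
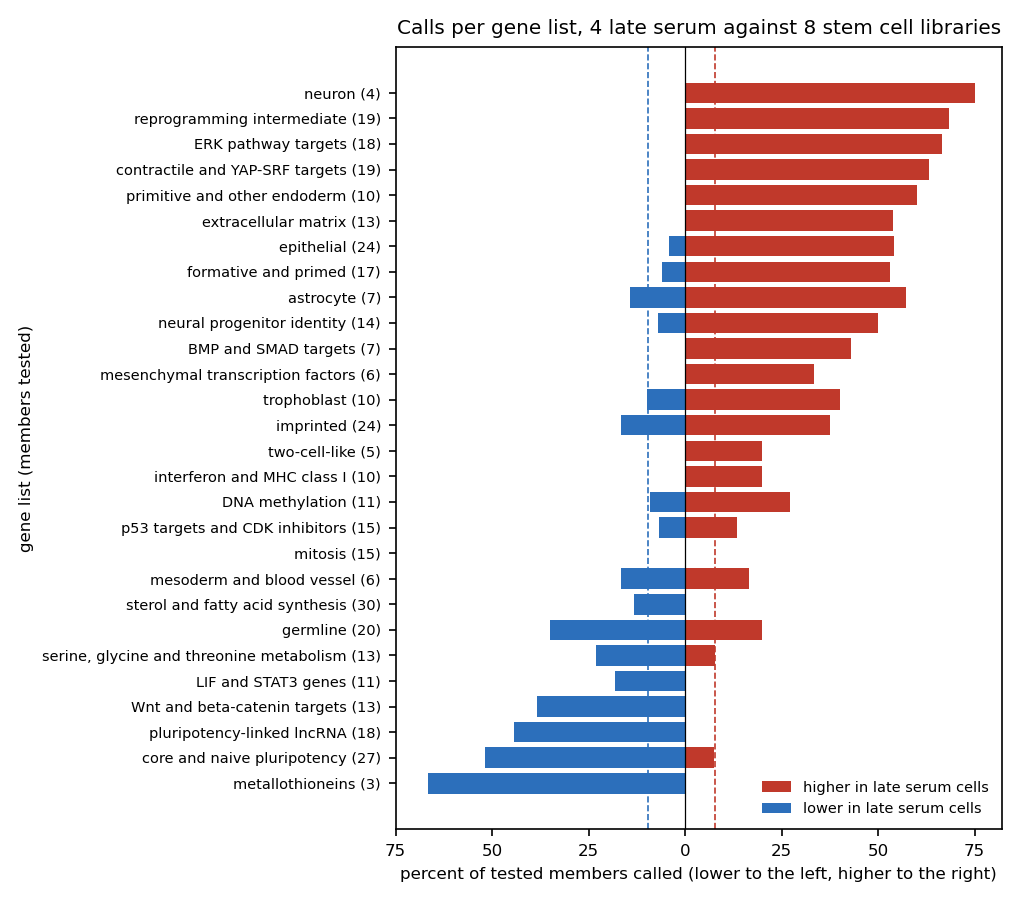
Percent of the tested members of each gene list that were called higher (right) or lower (left) in the 4 late serum libraries against the 8 stem cell libraries; the number tested is in parentheses and dashed lines mark the 7.61% higher and 9.67% lower among all genes. The intermediate, ERK and contractile lists lie farthest to the right among lists of over 10 genes, and naive pluripotency and the pluripotency-linked lncRNAs farthest to the left.

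In the sterol and fatty acid list 4 of 30 were lower and none higher, a share near the 9.67% lower among all genes. The count was 7 with the OKMS libraries alone and 2 without late OKMS R10. Scd1, the stearoyl-CoA desaturase, had 36.9, 54.6, 97.9 and 43.5 CPM against 95.4 to 237 (-1.43, SE 0.28, adjusted p = 0.0014). In wild-type progenitors 2 days of serum with doxycycline lowered 26 of 29 tested genes of this list. In the list of serine, glycine and threonine metabolism 3 of 13 were lower and 1 higher. Tdh, the threonine dehydrogenase on which mouse stem cells depend, had 480.2, 693, 78.6 and 329 CPM against 838 to 1341 (-1.95, SE 0.38, adjusted p = 0.0013). Asns was lower too (-1.61, SE 0.17, adjusted p = 7.4e-06) and Phgdh, the entry to serine synthesis, higher (1.06, SE 0.26, adjusted p = 0.0063). The metallothioneins Mt1 (-1.73, SE 0.20, adjusted p = 1.8e-05) and Mt2 (-1.63, SE 0.22, adjusted p = 5.3e-05) were lower, with all late libraries below all stem cell libraries of their chemistry. Of the 3 genes of that list, edgeR and DESeq2 called 1 higher and 2 lower. None of 15 mitosis genes was called, their differences lying between -0.25 and 0.39, and Cdk1 had 451 to 553 CPM against 285 to 615. All 15 fell in wild-type progenitors after 2 days of serum with doxycycline, with a list median of -5.44. Of 15 p53 targets and CDK inhibitors, Cdkn1c and Pmaip1 were higher (1.62 for Pmaip1, SE 0.44, adjusted p = 0.013) and Cdkn2a lower (-1.04, SE 0.21, adjusted p = 0.0018), a share near the 17.3% of all genes called. Of 10 interferon and MHC class I genes, B2m (1.20, SE 0.25, adjusted p = 0.0025) and Tap1 (1.23, SE 0.32, adjusted p = 0.0097) were higher. That share is near the 17.3% of all genes called in either direction, of which 7.61% were higher. That list had 4 higher without late OKMS R9, late OKMS R10 or the O4G stem cells of R9 and with the OKS libraries alone, and 2 higher and 2 lower without late OKS R9. It had 1 higher and 2 lower with the OKMS libraries alone, 1 higher and 1 lower without late OKS R10, and 1 higher with thinned reads and at a minimum of 5 CPM. The call of Pmaip1 was lost without late OKMS R10, those of B2m and Phgdh without late OKS R10 and with the OKMS libraries alone, and that of Tap1 with thinned reads and with the OKS libraries alone. Cdkn2a lost its call in 10 alternatives. The p53 list had 1 call without late OKMS R10, late OKS R9 or late OKS R10.

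Late serum cells were next set against late 2i-LIF cells of the same cassette, day and chemistry (4 pairs, with the pair as a term), which holds the origin and cassette fixed and leaves medium and doxycycline. Of 14978 genes, 1296 were called (8.65%), 583 higher (3.89%) and 713 lower (4.76%) in serum. The 4 serum libraries are the same as above. The R9 and R10 differences from stem cells themselves differed, by a test of chemistry and day together, for 346 of 15136 genes (2.29%). In this setting 12 of 19 contractile, 11 of 19 ERK, 13 of 18 intermediate and 3 of 7 BMP genes were higher and none of them lower. Dnmt3l led the rises, at 5.97 (SE 0.46, adjusted p = 4.3e-06), followed by Acta2 at 5.92 (SE 0.38), Lin28a at 5.81, Anxa3 at 5.64 and Tagln at 5.47. Spic led the falls (-5.93, SE 0.43, adjusted p = 3.2e-06), with Crygd (-5.20), Gm13128 (-5.07), Bhmt (-4.84) and the transcript antisense to Hydin. Crygd, a lens crystallin gene, had 26.4 to 52.4 CPM in late 2i-LIF cells and 5.25 to 20.1 in stem cells, and Bhmt, of homocysteine metabolism, 39.8 to 60.5 and 6.63 to 30.1. Of 15 tested neural progenitor genes, 3 were higher and 1 lower, and of 30 sterol genes 9 were lower. Without the OKS pair of day 20, 552 genes were called.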

How the data were processed

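Gene expression was read from the CPM table of 45 libraries that the authors deposited. Per the submitters' processing notes, reads were aligned with minimap2 2.24-r1122 and mm10 was the build. The gene counter's settings and use of strand are not given in the sources used here. Every library's CPM values were whole multiples of 1 read (100% of 711452 values above 0, within 0.02 reads), and reads were recovered from them. In the table, 13 further sample columns were not used, and 20 rows whose names had become numbers stayed out of all tests (0.0959 to 0.280% of CPM in 36 libraries, 0 in the 9 stem cell libraries). Genes at 1 CPM or more in at least 4 libraries (2 in the fits of 1 chemistry and of wild-type progenitors) were tested with limma 3.58.1 in R 4.3.3 on log2(CPM + 1), with chemistry as a term, the trend option and Benjamini-Hochberg adjustment over all genes tested. Alternatives used edgeR 4.0.16 and DESeq2 1.42.0 on recovered reads, other filters, scalings and pseudocounts, thinning and leaving out libraries. The tests were checked on simulated data, where the limma fits of both chemistries and of R10 alone made too many false calls and those on thinned reads, edgeR and DESeq2 did not. Nothing says that libraries came from separate cultures, so p-values measure only the spread between libraries. R10 stem cell libraries of 1 line differed less from each other than from those of other lines. The fit of both chemistries counts them as separate, so its p-values may be too small. Only the R10 fit was repeated with 1 mean per line. Positions are GRCm38 from GENCODE M21. Members and gene lists were chosen with earlier results of these data known. Named genes were to be the 10 largest rises and falls of protein-coding genes and 3 each of lncRNA and unannotated genes whose arms did not overlap, up to 2 called members of each list in each direction, the 4 factor genes, and 5 rises and 5 falls of the serum and 2i-LIF pairs. Other list members were named after their values were seen. List genes that the table does not hold are not analysed here.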

Additional observations from a re-analysis of the deposited data

Results flagged for a closer look

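Of 91 named genes checked, 7 had 1 of the 6 R10 stem cell libraries far from the other 5, where chance flags about 1 in 20. The first R1 library was highest for Lin28a (22.06 CPM), S100a4 (0.5191 CPM), Slc1a3 (2.076 CPM), Thbs1 (0.2596 CPM) and Tm4sf1 (0.2596 CPM). The second R1-Clone3 library was highest for Prelp (0.3873 CPM) and lowest for Sox2 (79.78 CPM). The levels of Thbs1, Tm4sf1 and Prelp are 1 read and that of S100a4 2 reads, with the other 5 libraries at 0, too few reads to set a library apart. For the 6 genes other than Sox2 even these highest libraries lay below every late serum library of R10.

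The difference between late serum and stem cells was itself different between day 18 in R10 and day 20 in R9 for 3 named genes, by the interaction term of the limma fit. Peg10 was higher by 1.09 in R10 and by 6.26 in R9, a difference of -5.17 (SE 1.21, adjusted p = 0.0438). Tdh changed by -2.84 in R10 and by -0.63 in R9, a difference of -2.211 (SE 0.55, adjusted p = 0.0497). Trpm1 changed by -5.37 in R10 and by -3.54 in R9, a difference of -1.822 (SE 0.34, adjusted p = 0.0205). Day and chemistry cannot be told apart in these values.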

How the results depend on the processing

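The fit of both chemistries called 2616 genes, 2313 to 2857 without single libraries and 1661 at a minimum of 5 CPM. In R10 alone the 3808 calls became 2373 with DESeq2, 1888 with thinned reads, 2338 with 1 mean per stem cell line, and 0 with the 2 O4G stem cell libraries only (limma, 3806 at an unadjusted p under 0.05, no other tool run). In R9 alone, with 2 libraries an arm, the 343 calls ranged from 186 to 652 without single libraries. They became 5 at a pseudocount of 0.25, 832 at a minimum of 5 CPM, 995 with median centring, 536 with DESeq2 and 633 with thinned reads. With no filter they were 0 (limma, 3224 at an unadjusted p under 0.05) and with quantile normalization 0 (3131), while edgeR gave 480. The 1296 calls between media became 713 with thinned reads, 174 from the R10 pairs only, and 552 to 1093 without single pairs. The 346 chemistry differences became 98 with edgeR and 80 with thinned reads. With R9 calls sorted by R10 references, the 152 higher genes held 61 progenitor-high, 43 intermediate-high, 48 in neither, 36 progenitor-low, 40 serum-high and 37 wild-type serum-high genes, and the 187 lower genes 143 progenitor-low and 29 serum-low. The R10 lists of progenitor-high (3976) and progenitor-low genes (3582) were longer than those of R9 (2272 and 2239). Their shares of all genes were not computed for this sort, so an excess cannot be read from its counts. At a minimum of 5 CPM the higher genes were 949, with 362 in neither (38.1%, against 47.7% of 1668) and 263 wild-type serum-high (27.7%, against 23.8%). From thinned R10 reads the 892 higher genes held 369 progenitor-high, 155 intermediate-high, 368 in neither and 234 wild-type serum-high, and the 915 lower genes 514 progenitor-low. Thinning was added after seeing the data. The cause of these shifts was not tested.

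In wild-type progenitors the 3935 calls ranged from 1246 to 4485 without single libraries, and with the replicate block they were 5603. The labels do not say that equal numbers share a culture, and same-number deviations correlated at 0.474 over 14669 genes with 2 pairs. Of 99 named gene calls, 81 held in every alternative that tested the gene and 18 were lost in at least 1, with none reversed. An alternative whose filter dropped the gene was not counted. In the fit of both chemistries, genes under 1 CPM in all stem cells were thus not checked without a late library or with 1 cassette alone. Depth limits R10 differences of genes below a few CPM.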
